A study of Mus musculus with 7 samples.

Results

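Expression of 10 genes that detect foreign nucleic acid or pass on the alarm was examined in LSK cells (Lin-Sca1+Kit+), the sorted marrow population in which mouse hematopoietic stem cells and the earliest progenitors are found. The 10 genes were taken by symbol from the 24421 symbols of the deposited counts, and all 10 passed the filter on low counts that left 13340 genes for testing. They are the RIG-I-like receptors Ddx58, Ifih1 and Dhx58 with the adaptor Mavs, the endosomal Toll-like receptors Tlr3, Tlr7 and Tlr9 with their adaptors Ticam1 and Myd88, and the receptor chaperone Unc93b1. All 10 were detected in every sample, from the abundant Unc93b1 to the scarce Tlr3, and 0 of them passed the adjusted threshold between the genotypes.

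RNA-seq compared 4 Ddx41+/+ samples (replicates 1 to 4) with 3 Ddx41+/- samples (replicates 6 to 8). Donor marrow came from mice carrying Rosa-CreERT2, a tamoxifen-activated Cre recombinase expressed in most cell types, with either a wild-type Ddx41 locus or 1 floxed Ddx41 allele, and donor marrow cells (1e6) were given to each lethally irradiated BoyJ recipient. All recipients received tamoxifen, 1 mg per injection in 2 rounds of 5 days, so both groups shared Cre activation, irradiation and transplantation, and about 20000 LSK cells were sorted per recipient 8 weeks after transplantation. The labels do not separate donor cells from any residual recipient cells, and a Ddx41+/- library numbered 5 was removed from the counts and is not analysed here.

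Total counts ranged from 32234499 to 43751290 per sample. Ddx41, an RNA helicase that is itself described as a nucleic acid sensor, was at 92.8 to 106.6 CPM (counts scaled to the size of the library) in Ddx41+/+ and 64.4 to 69.5 CPM in Ddx41+/- samples, with a log2 fold change of -0.54 (SE 0.0714, edgeR adjusted p = 0.0052). Kit was at 427.1 to 505.1 CPM and Cd34 at 646.7 to 830.0 CPM, whereas Ly6a, which encodes the Sca1 antigen used for the sort, was at 13.3 to 30.5 CPM. Ly6a has close paralogs, and how reads shared between such genes were counted is not stated. The T-cell gene Cd3e was at most 0.347 CPM.

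RIG-I-like receptors are cytosolic helicases that bind viral RNA. Ddx58 encodes RIG-I, which recognises short double-stranded RNA with a 5' triphosphate, Ifih1 encodes MDA5, which recognises long double-stranded RNA, and Dhx58 encodes LGP2, which lacks signalling domains and modulates the others. Ddx58 and Ifih1 signal through Mavs, an adaptor on the mitochondrial outer membrane, to the kinases and transcription factors that induce type I interferon. Toll-like receptors of the endosome sample RNA or DNA taken up from outside the cell. Tlr3 recognises double-stranded RNA and signals through Ticam1 (TRIF), Tlr7 recognises single-stranded RNA and Tlr9 recognises DNA rich in unmethylated CpG, both through Myd88, and Unc93b1 carries these receptors from the endoplasmic reticulum to the endosome. Several of the sensors, Ddx58, Ifih1 and Dhx58 among them, are themselves induced by interferon through factors that bind elements containing repeated GAAA motifs.

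The promoters of 4 of the genes are shown because they carry the letters on which such factors act (Ifih1, Myd88), or belong to the genes that came nearest to a genotype difference (Ddx58, Tlr9). Each line gives the 150 bases upstream of the RefSeq start on the strand of the gene, 5' to 3', from GRCm38.p6, with capitals marking matches to the interferon-regulatory-factor core GAAANNGAA on either strand. The stretches lie at chr4:40239826-40239975 (minus strand) for Ddx58, chr2:62646256-62646405 (minus strand) for Ifih1, chr9:106222448-106222597 (plus strand) for Tlr9 and chr9:119340019-119340168 (minus strand) for Myd88.
Ddx58: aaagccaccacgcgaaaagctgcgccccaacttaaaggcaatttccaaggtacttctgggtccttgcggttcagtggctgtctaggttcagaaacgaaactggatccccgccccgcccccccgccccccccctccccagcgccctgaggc
Ifih1: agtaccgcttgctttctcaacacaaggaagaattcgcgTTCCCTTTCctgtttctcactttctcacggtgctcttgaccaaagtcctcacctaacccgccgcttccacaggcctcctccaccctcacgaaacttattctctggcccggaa
Tlr9: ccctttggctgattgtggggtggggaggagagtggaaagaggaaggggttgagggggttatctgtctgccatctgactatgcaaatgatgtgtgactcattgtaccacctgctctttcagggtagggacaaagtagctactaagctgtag
Myd88: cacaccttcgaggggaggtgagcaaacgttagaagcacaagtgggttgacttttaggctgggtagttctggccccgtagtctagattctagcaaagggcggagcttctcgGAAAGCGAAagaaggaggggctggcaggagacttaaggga

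RefSeq promoter windows of 300 bases (250 before to 50 after the start) were matched for 7 of the 10 genes, not for Dhx58, Tlr7 or Unc93b1. The core was present on either strand in 3 of the 7, Ddx58, Ifih1 and Myd88, and in 8.56% of all 32851 windows. The match of Ifih1 shown above spans bases -112 to -104 and the gene has another at 33 to 41 after the start, the match of Ddx58 lies at 4 to 12 after the start and therefore outside the printed stretch, and that of Myd88 lies at -40 to -32. A STAT-type element, TTCNNNGAA, was present in 8.3% of windows and in Myd88 alone among the 7, at -46 to -38, where it overlaps the other match. Neither search found its letters in the windows of Mavs, Tlr3, Tlr9 or Ticam1. The matches are descriptions of sequence, and no binding was measured here.

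Levels were first compared between the genes per exon length, as CPM divided by the exon length in kilobases (RPKM), over all 7 samples. Unc93b1 was the most abundant with a mean of 83.5 RPKM (range 76.5 to 94.1), followed by Myd88 at 23.8 RPKM (22.6 to 25.8) and Mavs at 13.3 RPKM (12.2 to 14.4). The ranges of these 3 genes did not overlap. Dhx58 at 8.46 RPKM and Ticam1 at 7.52 RPKM came next, with overlapping ranges, and Dhx58 was the higher in 6 of 7 samples. Ddx58 at 4.70 RPKM and Ifih1 at 4.36 RPKM also overlapped, with Ddx58 the higher in 5 of 7 samples. The receptors of the endosome were lowest. Tlr9 had a mean of 1.16 RPKM and Tlr7 of 1.02 RPKM, with Tlr9 the higher in 5 of 7 samples, and Tlr3 was below both in every sample at 0.469 RPKM (0.251 to 0.653). The chaperone thus exceeded the least abundant receptor 178-fold in mean level per length, and every adaptor exceeded every endosomal receptor. These are levels in a bulk sorted fraction, in which fewer cells of a type and less RNA per cell cannot be told apart.

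**Figure D1:**
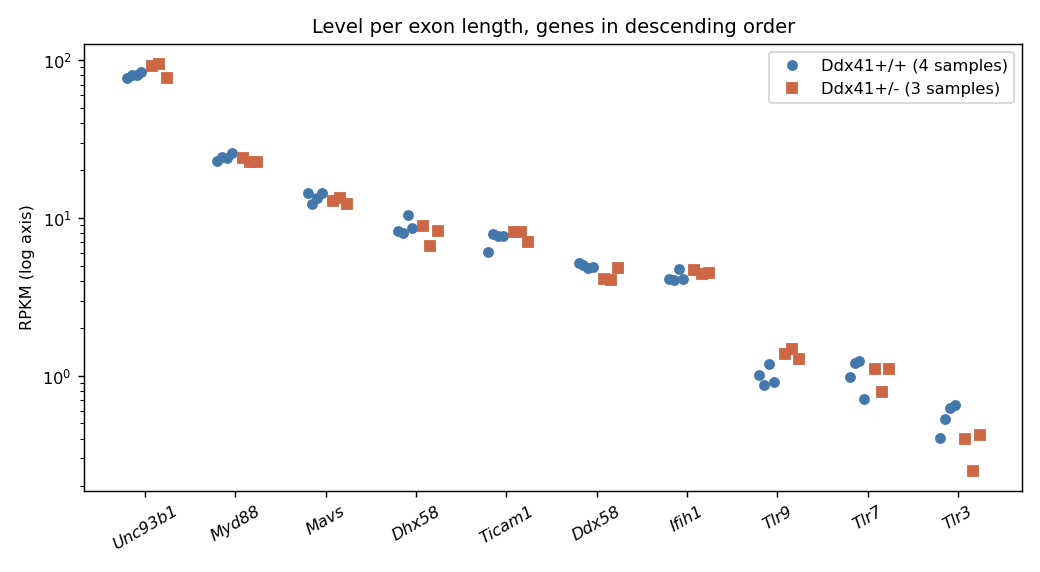
Level per exon length (RPKM, log axis) of the 10 genes in descending order of their mean over 7 samples, with circles for the 4 Ddx41+/+ and squares for the 3 Ddx41+/- samples. Unc93b1 lies between 76.5 and 94.1 RPKM and Tlr3 between 0.251 and 0.653 RPKM, and the ranges of Dhx58 and Ticam1, of Ddx58 and Ifih1, and of Tlr9 and Tlr7 overlap.

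The genotype comparison asked whether loss of 1 Ddx41 allele was accompanied by a change in these sensors or their adaptors. With edgeR's quasi-likelihood test, 0 of the 10 genes had an adjusted p under 0.05, against 29 of 13340 genes (0.217%) in all, and DESeq2 and limma-voom also called 0. The unadjusted p was under 0.05 for 2 of the 10 (3 by DESeq2 and 2 by limma-voom), Ddx58 lower and Tlr9 higher, against 10.6% of all genes tested. In CPM, 1 of the 10 (Tlr9) did not overlap between the genotypes, against 10.1% of all genes. Fitted values were higher in Ddx41+/- for 4 genes and lower for 6, with a median log2 fold change of -0.0623 against -0.00482 over all genes, and a median absolute log2 fold change of 0.109 against 0.107. The shares past the unadjusted threshold and without overlap thus rest on 2 genes and 1 gene. The 2 became 0 without Ddx41+/+ replicate 2 or 4 or without Ddx41+/- replicate 6 or 7, 1 without Ddx41+/+ replicate 1, and 3 without Ddx41+/- replicate 8.

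**Figure D2:**
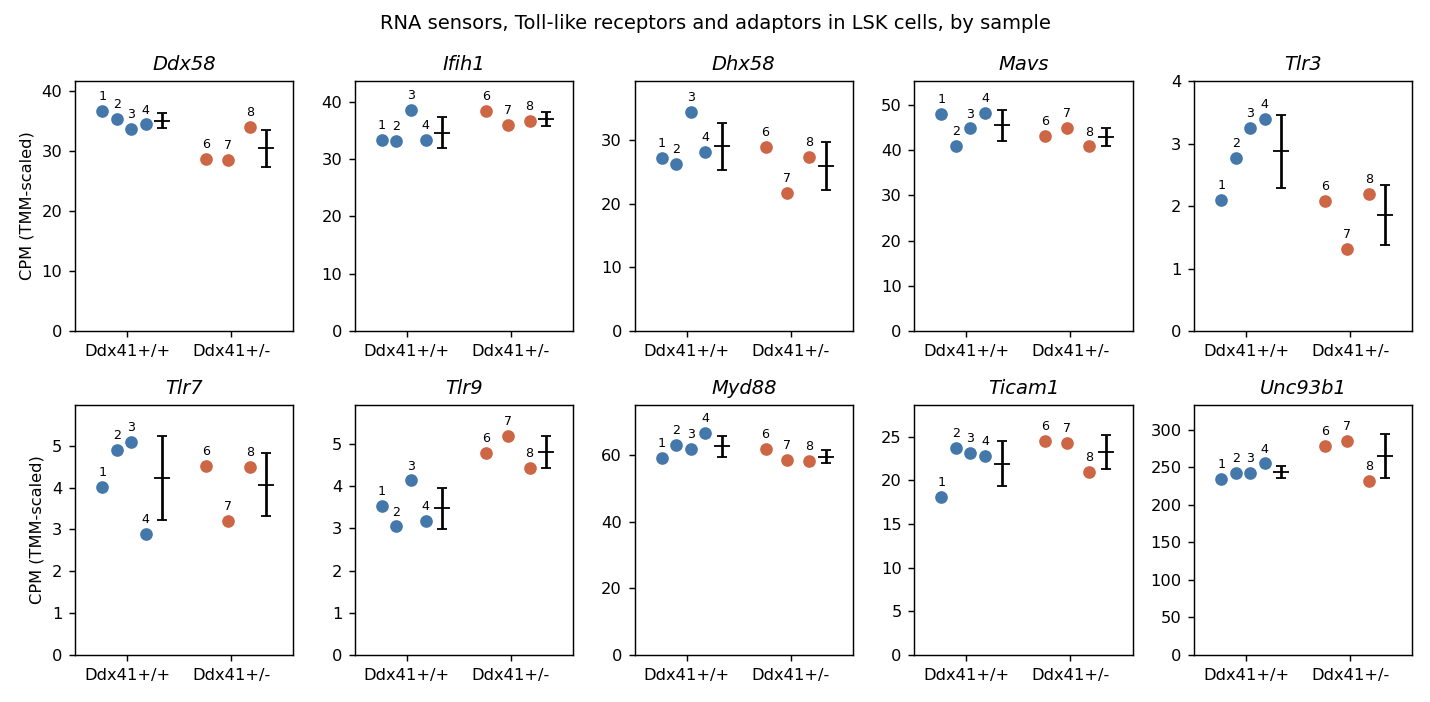
TMM-scaled CPM of each gene in each sample, by genotype, on axes that start at 0 and differ between panels. Numbers are replicates, and the bar beside each group is its mean ± SD (4 Ddx41+/+ and 3 Ddx41+/- samples). Tlr9 is the gene whose groups do not overlap, and replicates 6 and 7 lie below all Ddx41+/+ samples for Ddx58.

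Among the RIG-I-like receptors, Ddx58 was lower in 2 of the 3 Ddx41+/- samples. Ddx58 (chr4:40203773-40239828, minus strand) was at 36.8, 35.4, 33.8 and 34.5 CPM in the Ddx41+/+ samples and at 28.8, 28.6 and 34.1 CPM in Ddx41+/- replicates 6, 7 and 8. Replicates 6 and 7 were below every Ddx41+/+ sample, and replicate 8 lay inside their range. The means were 35.1 ± 1.29 (SD, n = 4) and 30.5 ± 3.12 CPM (SD, n = 3). The log2 fold change was -0.20 (SE 0.0915, 95% interval -0.40 to -0.01, edgeR unadjusted p = 0.0429, adjusted p = 0.445), and an exact two-sided permutation test of CPM gave p = 0.0571. The difference did not pass adjustment, and the interval spans levels from 76.0% to 99.5% of Ddx41+/+.

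Ifih1, the receptor for long double-stranded RNA (chr2:62595798-62646255, minus strand), was at 33.4, 33.1, 38.6 and 33.3 CPM in Ddx41+/+ and 38.4, 36.0 and 36.6 CPM in Ddx41+/- samples. All 3 Ddx41+/- samples were above 3 of the Ddx41+/+ samples, but replicate 3 of Ddx41+/+ was the highest of all. Its log2 fold change was 0.10 (SE 0.0872, edgeR adjusted p = 0.748), with means of 34.6 ± 2.65 (SD, n = 4) and 37.0 ± 1.27 CPM (SD, n = 3). Dhx58, the regulator without signalling domains (chr11:100694884-100704271, minus strand), was at 27.2, 26.2, 34.4 and 28.1 CPM in Ddx41+/+ and 28.9, 21.7 and 27.3 CPM in Ddx41+/- samples. Its highest value was again in Ddx41+/+ replicate 3 and its lowest in Ddx41+/- replicate 7, while the other 5 samples lay within 26.2 to 28.9 CPM. The log2 fold change of Dhx58 was -0.15 (SE 0.119, edgeR adjusted p = 0.692), and it was -0.044 without Ddx41+/- replicate 7, -0.063 without Ddx41+/+ replicate 3 and -0.24 without Ddx41+/- replicate 6. Its locus overlaps an antisense gene, Dhx58os, and since the strand setting of the counting is not stated, reads of the pair cannot be told apart.

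Mavs, the adaptor shared by Ddx58 and Ifih1 (chr2:131234063-131248025, plus strand), was at 48.0, 41.0, 44.8 and 48.3 CPM in Ddx41+/+ and 43.1, 44.9 and 40.8 CPM in Ddx41+/- samples. The groups overlapped across most of their range, and the log2 fold change was -0.08 (SE 0.0838, edgeR adjusted p = 0.78). Its 95% interval of -0.26 to 0.09 puts the Ddx41+/- level between 83.4% and 106.7% of Ddx41+/+. Together, the 3 receptors and Mavs thus held 3 negative and 1 positive fitted difference, none larger in size than that of Ddx58.

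Among the Toll-like receptors of the endosome, Tlr9 was higher in all Ddx41+/- samples. Tlr9, the receptor for CpG DNA (chr9:106222598-106226883, plus strand), was at 3.53, 3.05, 4.14 and 3.18 CPM in Ddx41+/+ and 4.80, 5.19 and 4.44 CPM in Ddx41+/- samples. The lowest Ddx41+/- sample was above the highest Ddx41+/+ sample. The means were 3.47 ± 0.486 (SD, n = 4) and 4.81 ± 0.375 CPM (SD, n = 3), with a log2 fold change of 0.47 (SE 0.211, 95% interval 0.02 to 0.92, edgeR unadjusted p = 0.0405, adjusted p = 0.437). An exact two-sided permutation test gave p = 0.0571, where the smallest value the design allows is 0.0286. The libraries held 115 to 197 counts of Tlr9, for which counting alone gives an SD of 9.33% at the lowest.

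Tlr9 is strongly expressed in B-lineage cells and plasmacytoid dendritic cells, so their markers are given beside it. Over all genes tested, 0.217% were called and 51.2% were fitted lower. Of 11 B-lineage markers, 1 was called higher (Blnk, from 4.97 ± 0.195 to 9.44 ± 1.82 CPM, edgeR adjusted p = 0.0401, n = 4 and 3). Of the 11, 10 had a fitted difference above 0, with a median log2 fold change of 0.63. Their summed level was 51.1 to 73.6 CPM in Ddx41+/+ and 69.2 to 94.5 CPM in Ddx41+/- samples. Cd79a, a component of the B-cell receptor, was at 3.19 to 7.32 CPM and 5.30 to 18.5 CPM, in the same order. Of the 12 plasmacytoid dendritic markers, 10 passed the filter and 0 were called by edgeR (0 with an unadjusted p under 0.05). Of the 10 tested, 4 were fitted higher and 6 lower. The list summed to 564.2 to 594.3 CPM in Ddx41+/+ and 535.9 to 637.8 CPM in Ddx41+/- samples. Much of the sum came from Irf8, which is also given below as a myeloid gene, at 321.1 to 338.3 CPM and 289.0 to 375.0 CPM. The defining markers Siglech and Ccr9 did not exceed 1.14 CPM and 0.895 CPM in any sample. Ly6d had the highest log2 fold change of the list (1.58, edgeR unadjusted p = 0.0665, adjusted p = 0.514). It was at 14.6 CPM in Ddx41+/- replicate 7, where Tlr9 was also highest, and at 1.93 and 2.73 CPM in replicates 6 and 8. Its Ddx41+/+ mean was 2.13 ± 0.55 CPM (SD, n = 4). In replicate 7, Siglech (0.564 CPM) and Ccr9 (0.297 CPM) lay inside their Ddx41+/+ ranges. That sample was the highest for 2 of the 10 tested plasmacytoid dendritic markers and for 5 of the 11 B-lineage markers. The share of all genes highest there was not computed. The part of B-lineage or plasmacytoid dendritic cells in the Tlr9 difference was not tested.

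Tlr3, the receptor for double-stranded RNA (chr8:45395665-45411080, minus strand), had the largest fitted difference of the 10 genes and the lowest counts. It was at 2.10, 2.77, 3.25 and 3.40 CPM in Ddx41+/+ and 2.08, 1.31 and 2.19 CPM in Ddx41+/- samples. Replicates 6 and 7 of Ddx41+/- were below every Ddx41+/+ sample, and replicate 8 was above Ddx41+/+ replicate 1. The fitted log2 fold change was -0.62 (SE 0.298, 95% interval -1.26 to 0.01, edgeR unadjusted p = 0.0526, adjusted p = 0.478). The Ddx41+/- mean was 64.5% of the Ddx41+/+ mean (1.86 ± 0.482, n = 3, against 2.88 ± 0.584 CPM, n = 4, SD). The interval spans levels from 41.8% to 100.5% of Ddx41+/+. The libraries held 44 to 123 counts of Tlr3, for which counting alone gives an SD of 15.1% at the lowest, and an antisense gene, Gm45542, overlaps the locus.

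Conventional dendritic cells express Tlr3, so their markers are given beside it. Over all genes tested, 51.2% were fitted lower and 10.6% had an unadjusted p under 0.05. Of 10 conventional dendritic markers, 9 passed the filter, 8 of these were fitted lower, 4 with an unadjusted p under 0.05, and 0 were called by edgeR. Their summed level was 465.5 to 528.0 CPM in Ddx41+/+ and 368.7 to 436.3 CPM in Ddx41+/- samples, without overlap. Much of the sum came from Flt3, a receptor gene that is also among the LSK-defining markers, at 221.6 to 264.4 CPM and 164.1 to 243.9 CPM. The defining marker Xcr1 was at 1.76 to 3.57 CPM and 1.01 to 1.45 CPM (edgeR adjusted p = 0.154), and Clec9a at 3.31 to 4.74 CPM and 2.39 to 3.70 CPM (edgeR adjusted p = 0.734). The 1 marker fitted higher was Batf3 (log2 fold change 0.57, at 0.148 to 1.40 CPM). In Ddx41+/- replicate 7, where Tlr3 was lowest, the median of the list was also at its lowest, -0.41 on the log2 scale against the mean of the 7 samples. Of the 9 markers, 4 were lowest in that sample (44.4%, against 21.9% of all genes tested). Xcr1 was instead lowest in replicate 8 (1.01 CPM) and Clec9a in replicate 6 (2.39 CPM, against 3.56 CPM in replicate 7). The part of these cells in the Tlr3 difference was not tested.

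Tlr7, the receptor for single-stranded RNA (chrX:167304929-167330558, minus strand), was at 4.01, 4.89, 5.09 and 2.90 CPM in Ddx41+/+ and 4.52, 3.20 and 4.49 CPM in Ddx41+/- samples. Each genotype held 1 low sample, and the range of Ddx41+/- lay inside that of Ddx41+/+. The log2 fold change was -0.05 (SE 0.241, edgeR adjusted p = 0.963), with a 95% interval of -0.56 to 0.46 that leaves room for a change of either sign. The 3 endosomal receptors therefore did not share a direction, and differences between them in response to genotype were not tested.

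The log2 fold changes of the adaptors Myd88 and Ticam1 had smaller SEs than those of the 3 endosomal receptors. Those receptors had at most 199 counts per library, against at least 732 for the 2 adaptors. The SE of Ticam1 was above those of Ddx58 (0.0915) and Ifih1 (0.0872). Myd88, the adaptor of Tlr7 and Tlr9 (chr9:119335934-119341411, minus strand), was at 59.1, 63.1, 61.8 and 66.6 CPM in Ddx41+/+ and 61.8, 58.5 and 58.2 CPM in Ddx41+/- samples. Its log2 fold change was -0.07 (SE 0.0712, edgeR adjusted p = 0.762), and the interval puts Ddx41+/- between 85.5% and 105.4% of Ddx41+/+. The Myd88 locus overlaps Acaa1a on the opposite strand, at 31.8 to 47.6 CPM, and Slc22a14, which had no counts in any sample. Ticam1, the adaptor of Tlr3 (chr17:56269319-56276786, minus strand), was at 18.1, 23.7, 23.1 and 22.8 CPM in Ddx41+/+ and 24.5, 24.3 and 21.0 CPM in Ddx41+/- samples. The groups overlapped, with replicate 1 of Ddx41+/+ the lowest of all. The log2 fold change of Ticam1 was 0.08 (SE 0.115, edgeR adjusted p = 0.853).

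Unc93b1, the transporter of the endosomal receptors (chr19:3935186-3949340, plus strand), was at 235.0, 242.8, 242.4 and 255.2 CPM in Ddx41+/+ and 279.1, 285.3 and 232.0 CPM in Ddx41+/- samples. Replicates 6 and 7 of Ddx41+/- were the highest samples and replicate 8 the lowest. The means were 243.9 ± 8.34 (SD, n = 4) and 265.5 ± 29.2 CPM (SD, n = 3), and the log2 fold change was 0.12 (SE 0.0709, edgeR adjusted p = 0.577). It was 0.21 without Ddx41+/- replicate 8 (adjusted p = 0.359), 0.085 without replicate 6 and 0.067 without replicate 7 (adjusted p = 0.91). The myeloid genes Irf8, Csf1r and Ccr2, picked after their values were seen, had the same order among the Ddx41+/- samples. How many of all genes share that order was not computed. Irf8, a transcription factor of monocyte and dendritic cell development, was at 370.6, 375.0 and 289.0 CPM in replicates 6, 7 and 8 against 321.1 to 338.3 CPM in Ddx41+/+. The growth factor receptor gene Csf1r was at 146.8, 154.8 and 116.8 CPM against 120.9 to 126.9 CPM. Ccr2, a chemokine receptor gene of monocytes, was at 127.0, 140.5 and 103.1 CPM against 93.4 to 110.6 CPM.

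Over all genes tested, 0.217% were called by edgeR, 10.6% had an unadjusted p under 0.05 and 51.2% were fitted lower. The 13 macrophage and monocyte markers summed to 688.4 to 919.5 CPM in Ddx41+/+ and 830.8 to 995.5 CPM in Ddx41+/- samples. Of these markers, 0 were called by edgeR, 1 had an unadjusted p under 0.05 and 12 were fitted higher. Of 11 mature neutrophil markers in the counts, 1 was called higher by edgeR, 9 had an unadjusted p under 0.05, all higher, and 10 were fitted higher, and their sum was 780.3 to 1322.9 CPM in Ddx41+/+ samples and 1403.3 to 2419.1 CPM in Ddx41+/- samples. The 12 markers listed as LSK-defining were fitted lower for 11 genes, 0 of which were called (7 with an unadjusted p under 0.05). They summed to 3061.2 to 3294.9 CPM and 2708.9 to 3050.1 CPM. The genes of the sorted antigens, Kit and Ly6a, had log2 fold changes of 0.0 and -0.01 (edgeR adjusted p = 0.99 and 0.992). Those of Hlf and Slamf1 were -0.46 each and that of Flt3 -0.34 (edgeR adjusted p = 0.062, 0.355 and 0.355). The part of these cell types in the values of Unc93b1 and the other genes was not tested.

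**Figure D3:**
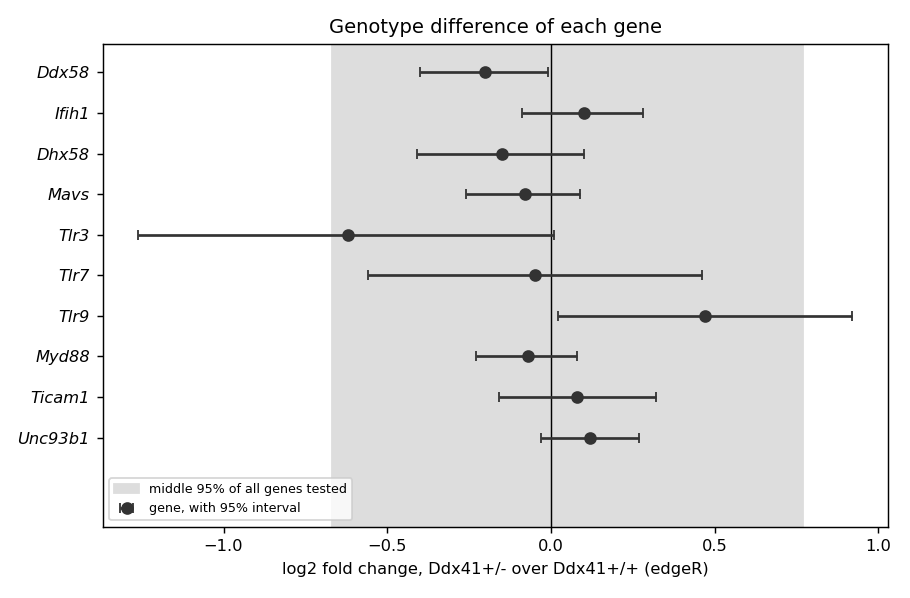
Log2 fold change (Ddx41+/- over Ddx41+/+) of each gene from edgeR with its 95% interval, over a grey band that holds the middle 95% of all 13340 genes tested (-0.67 to 0.77). Every point lies inside the band, the intervals of Ddx58 and Tlr9 do not reach 0, and the 3 Toll-like receptors have the widest intervals.

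Whether the 10 genes varied together across the 7 samples was examined in 45 pairs, with r positive in 25 and negative in 20. After adjustment over the 45 pairs, 0 had a p under 0.05 by exact permutation, for Pearson's r (smallest adjusted p = 0.39) or Spearman's rho (smallest adjusted p = 0.694), while 3 pairs had an unadjusted p under 0.05 for r and 2 for rho. Ddx58 and Unc93b1 had r = -0.92 (exact permutation p = 0.0155) and rho = -0.61 (exact permutation p = 0.167), but without Ddx41+/- replicates 6 and 7 r was -0.25, so the relation rests on those samples. Centred within genotype, r was -0.94 (permutation p = 0.00278, adjusted p = 0.0938). Permutations of centred values crossed the genotypes, so their p-values are not exact and can be too small. Ddx58 and Tlr9 had r = -0.81 (exact permutation p = 0.0262) and rho = -0.86 (exact permutation p = 0.0238), and r was -0.48 without the same samples and -0.47 centred within genotype. Tlr3 and Myd88 had r = 0.76 (exact permutation p = 0.0433) and rho = 0.57 (exact permutation p = 0.2), with r = 0.58 without Ddx41+/+ replicate 4 and Ddx41+/- replicate 7 and 0.62 centred within genotype. The sensors of RNA in the cytosol had r of both signs. Ddx58 had r = -0.59 with Ifih1 (exact permutation p = 0.192) and 0.35 with Dhx58 (exact permutation p = 0.472), and Ifih1 and Dhx58 had r = 0.40 (exact permutation p = 0.403), with adjusted p-values of 0.685, 0.831 and 0.831. Centred within genotype, Ifih1 and Dhx58 had r = 0.85 (permutation p = 0.00417, adjusted p = 0.0938, with the same limit). The centred r was -0.32 for Ddx58 with Ifih1 and 0.02 for Ddx58 with Dhx58.

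**Figure D4:**
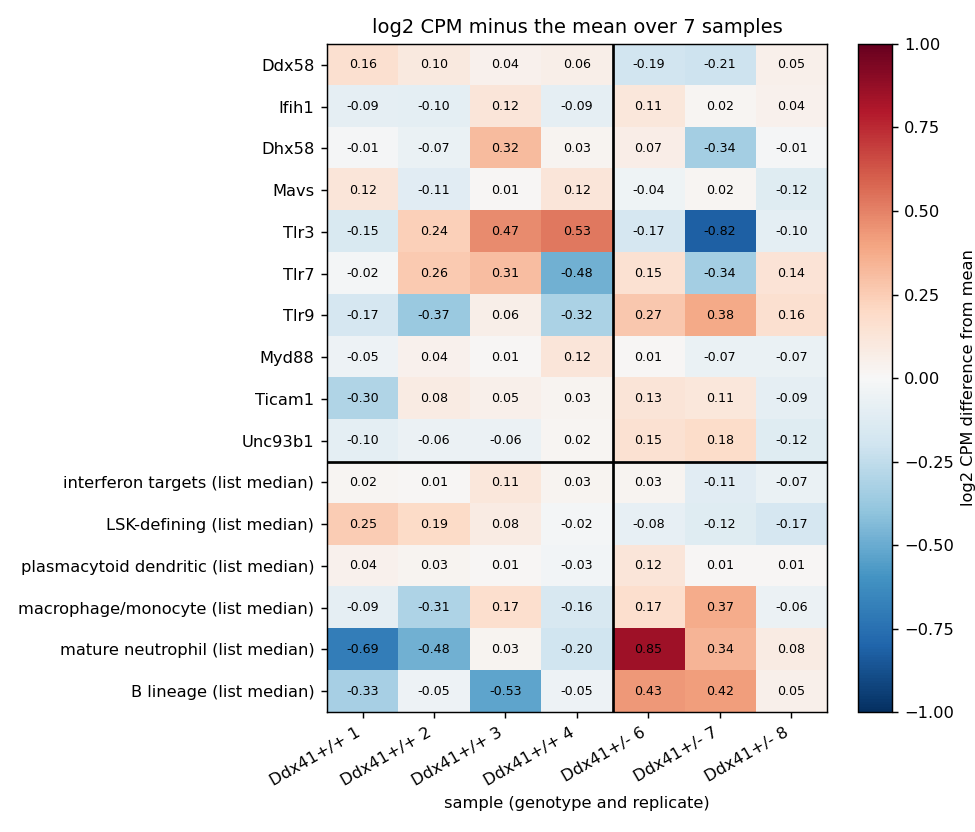
Log2 CPM minus the mean over the 7 samples, for the 10 genes (upper rows) and as the median over each of 6 gene lists (lower rows), with samples in columns and genotypes divided by the vertical line. Replicate 7 of Ddx41+/- has the lowest values of Tlr3 (-0.82) and Dhx58 (-0.34) and the highest of Tlr9 (0.38) and Unc93b1 (0.18), and mature neutrophil markers reach 0.85 in replicate 6.

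Other genes of the same pathways were read from 6 lists with 141 genes, of which 139 were tested. By edgeR, 0 were called in either direction (smallest adjusted p = 0.226), as by DESeq2 and limma-voom. The unadjusted p was under 0.05 for 16 of 139 (11.5%), 9 higher and 7 lower, against 10.6% of all genes, and the median log2 fold change was -0.00148. From each list the 2 genes with the smallest p are given. This choice favours genes without overlap between the genotypes, which made up 10.1% of all genes tested.

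The other Toll-like receptors and their partners (13 genes) were fitted higher for 9 and lower for 4, against 51.2% lower over all genes. Their median log2 fold change was 0.14, and 5 of the 13 were highest in Ddx41+/- replicate 7. Cd14, a co-receptor for lipopolysaccharide that also assists nucleic acid recognition, was at 13.0 to 17.5 CPM in Ddx41+/+ and 18.7 to 25.4 CPM in Ddx41+/- samples, without overlap (log2 fold change 0.47, SE 0.143, edgeR unadjusted p = 0.00445, adjusted p = 0.249). Tlr1, a surface receptor for lipopeptides, had means of 4.28 ± 0.347 (SD, n = 4) and 5.52 ± 1.14 CPM (SD, n = 3; edgeR adjusted p = 0.559). Of the other receptors of the endosome, Tlr12 was the most abundant in CPM, at 3.58 to 6.57 CPM in Ddx41+/+ and 4.73 to 6.17 CPM in Ddx41+/- samples (edgeR adjusted p = 0.911), and Tlr11 was at 0.629 to 1.14 CPM and 0.742 to 0.863 CPM (edgeR adjusted p = 0.932). Tlr8 was at 0.484 to 1.05 CPM in Ddx41+/+ and 0.699 to 1.93 CPM in Ddx41+/- samples, and Tlr13, a sensor of bacterial ribosomal RNA, at 0.663 to 0.802 CPM and 1.10 to 1.31 CPM, with adjusted p-values from edgeR of 0.648 and 0.644.

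In the list of trafficking and processing factors of the endosomal receptors, 17 of 22 tested genes were fitted higher and 5 lower, against 51.2% lower over all genes. Their median log2 fold change was 0.04, and 10 of the 22 were highest in Ddx41+/- replicate 7. Hsp90b1, which encodes gp96, the endoplasmic reticulum chaperone on which Toll-like receptors depend for folding, had means of 914.0 ± 60.5 (SD, n = 4) and 1098.2 ± 128.8 CPM (SD, n = 3). Its log2 fold change was 0.26 (SE 0.0771, edgeR unadjusted p = 0.0035, adjusted p = 0.226), and its groups overlapped. Pld4, an endolysosomal exonuclease that degrades the ligands of Tlr7 and Tlr9, was at 36.2 to 42.1 CPM in Ddx41+/+ and 41.6 to 61.3 CPM in Ddx41+/- samples (log2 fold change 0.38, SE 0.115, edgeR adjusted p = 0.264). Like Tlr9 and Unc93b1, Cd14, Hsp90b1 and Pld4 were highest in Ddx41+/- replicate 7. So were Tlr1 and, from the lists given below, Ddx3x, Rnf125 and Tab3. The share of all genes highest in that sample was not computed.

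Of 21 other RNA sensors and effectors, 12 were fitted higher and 9 lower (median 0.07). Ddx3x, a helicase that takes part in Mavs signalling, had means of 547.5 ± 19.1 (SD, n = 4) and 615.7 ± 43.3 CPM (SD, n = 3), and Dhx36, a helicase that resolves G-quadruplexes, 61.9 ± 2.89 and 71.2 ± 5.08 CPM. Neither overlapped between the genotypes, and the adjusted p-values from edgeR were 0.33 and 0.334. Regulators of RIG-I-like receptors were divided, 10 higher and 12 lower of 22 (median -0.01). The ubiquitin ligase gene Rnf125, whose product marks RIG-I for degradation, had means of 18.3 ± 2.21 and 22.5 ± 2.16 CPM, and Nlrx1, a mitochondrial inhibitor of Mavs, 22.8 ± 1.28 and 25.9 ± 1.71 CPM, with adjusted p-values from edgeR of 0.395 and 0.543.

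Downstream kinases, adaptors and transcription factors were fitted higher for 16 and lower for 14 of 30 genes (median 0.01). Ikbkg, which encodes the regulatory subunit NEMO of the IκB kinase complex, was at 60.0 to 61.2 CPM in Ddx41+/+ and 50.4, 43.9 and 59.8 CPM in Ddx41+/- samples (log2 fold change -0.24, SE 0.0906, edgeR adjusted p = 0.347). Tab3, which links polyubiquitin chains to the kinase TAK1, had means of 21.2 ± 1.09 and 24.8 ± 1.87 CPM (edgeR adjusted p = 0.427). Irf7, the interferon regulatory factor that acts downstream of Tlr7 and Tlr9, was at 17.3 to 22.8 CPM and at 22.6, 15.1 and 14.1 CPM (edgeR adjusted p = 0.648).

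Interferon and its targets were fitted lower for 26 of 32 tested genes and higher for 6, against 51.2% lower over all genes, with a median log2 fold change of -0.10. None was called by edgeR, and 4 had an unadjusted p under 0.05, all lower. Ifnb1, the gene of interferon beta, had no counts in any sample. Ifi27, an interferon-induced gene, was at 77.7, 74.7, 80.8 and 70.3 CPM in Ddx41+/+ and 67.2, 45.9 and 65.9 CPM in Ddx41+/- samples (log2 fold change -0.35, SE 0.112, edgeR unadjusted p = 0.00821, adjusted p = 0.3). Oasl2, an oligoadenylate synthetase-like gene, had means of 35.4 ± 6.17 (SD, n = 4) and 26.8 ± 5.13 CPM (SD, n = 3; edgeR adjusted p = 0.348). Replicate 7 of Ddx41+/- was the lowest sample for 13 of the 32 genes (40.6%), as for Ddx58, Dhx58 and Tlr3, against 21.9% of all genes tested. In the other pathway lists this share ran from 0% to 42.9%, the latter for the other RNA sensors (9 of 21). Within the lists it was counted for replicate 7 alone. Ifit1 was at 0.86 CPM there and at 4.37 and 3.18 CPM in replicates 6 and 8, against 2.88 to 4.45 CPM in Ddx41+/+ samples.

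**Figure D5:**
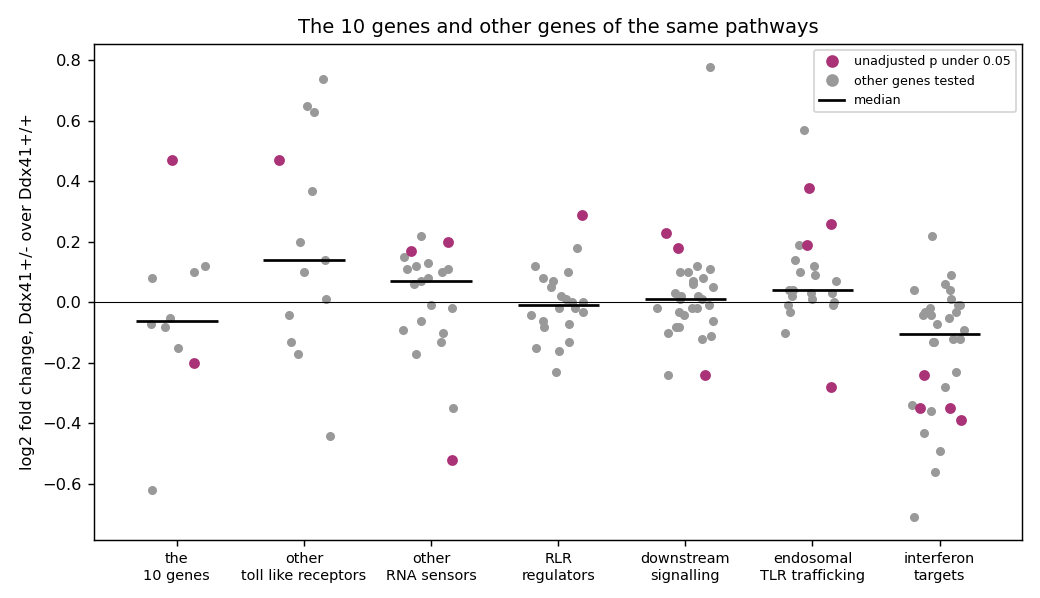
Log2 fold change (Ddx41+/- over Ddx41+/+, edgeR) of the 10 genes and of the genes tested in 6 pathway lists, with 1 point a gene, purple where the unadjusted p was under 0.05 and a line at each median. No gene shown had an adjusted p under 0.05, and the medians run from -0.10 for interferon targets to 0.14 for the other Toll-like receptors.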

How the data were processed

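Poly(A) RNA of sorted LSK cells was sequenced by the authors, who deposited whole-number raw counts for each gene symbol without normalization. The submitters' processing notes name FastQC 0.11.7, HISAT2 2.0.5, featureCounts 1.5.2 and the mm10 build. A stranded kit is named in the labels and an unstranded one in the study's methods, and the strand setting of the counting is not stated. All 7 sample columns were used, leaving 0 unused, and no row was an unassigned total. Groups came from the genotype in the labels. No pair of samples agreed within sampling noise (smallest chi-square per gene 13.7 over 21 pairs). The labels do not name a batch. Each sample was described as 1 recipient mouse.

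Counts were tested with edgeR 4.0.16 in R 4.3.3 (quasi-likelihood, robust, TMM scaling, filterByExpr), with Benjamini-Hochberg adjustment over 13340 genes and a threshold of 0.05. The biological coefficient of variation was 12.9%. CPM used TMM-scaled library sizes, and correlations used log2 CPM with a prior count of 2. RPKM divided CPM by the union exon length in GENCODE M21 (GRCm38), in which all 10 symbols were matched and from which gene positions were taken. Exact permutation tests covered the 35 assignments of 7 samples to 4 and 3, or all pairings of samples for correlations (scipy 1.17.1). Pairings of values centred within genotype also crossed the genotypes, so those p-values are not exact. Promoters were RefSeq sequences of GRCm38.p6.

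The 10 genes and the gene lists were chosen with earlier results of these data known. All 10 were named, with Ddx41 and, from each pathway list, the 2 genes of smallest p, at a mean of 1 CPM or more, where none was called. Marker genes, Irf7, Ifit1, Tlr8, Tlr11, Tlr12, Tlr13 and Ifnb1 were named after their values were seen. Alternatives were median-of-ratios, upper-quartile and library-total scaling, no filter, DESeq2 1.42.0, limma 3.58.1 voom with and without sample quality weights, a non-robust fit, a threshold of 0.1 and leaving out each sample in turn. The fit was tested on simulated counts.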

Additional observations from a re-analysis of the deposited data

Results flagged for a closer look

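A sample far from the others of its group was looked for in the 4 Ddx41+/+ samples, over 20 values (the 10 genes, Ddx41 and the summed marker lists), and 2 were found, where chance alone gives about 1 in 20. Ifih1, the receptor for long double-stranded RNA, was at 38.6 CPM in Ddx41+/+ replicate 3, and the nearest other sample of the genotype was at 33.4 CPM. Ticam1, the adaptor of Tlr3, was at 18.1 CPM in Ddx41+/+ replicate 1, and the nearest other sample was at 22.8 CPM. The 3 Ddx41+/- samples are too few for this check.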

How the results depend on the processing

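The count of 0 called among the 10 genes, and of 0 among the other pathway genes, was the same under all 16 alternatives, and the smallest adjusted p of any of the 10 genes was 0.333 (Tlr9, voom with quality weights). Ddx41 stayed past the threshold in all 15 alternative fits, with a log2 fold change of -0.56 to -0.50 when 1 sample was left out and an adjusted p of at most 0.0324. The count of correlated pairs was 0 under all 9 alternatives, those leaving out 1 sample having been chosen after seeing the data. With all samples in the fit, 0 of the 10 genes changed sign. Tlr7 (-0.05) turned positive without Ddx41+/+ replicate 2 (0.031) or 3 (0.05) or Ddx41+/- replicate 7 (0.092), with a range of -0.19 to 0.092, and Ticam1 (0.08) reached -0.0006 without Ddx41+/+ replicate 1, with a range of -0.0006 to 0.15. The count of genes with an unadjusted p under 0.05 (2), an alternative reading chosen after seeing the data, was 0 to 3 when 1 sample was left out and 1 to 3 otherwise, with 1 under voom with quality weights. The cause was not tested. No paired analysis was possible because the genotypes share no replicate numbers. Counts were lowest for Tlr3, Tlr7 and Tlr9, with at most 199 per library.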
